A study of Mus musculus with 8 samples.

Results

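The comparison described here set the transcriptome of 3T3-L1 cells treated with ML-60218 against that of control cells, both collected at day 2 of adipocyte differentiation. 3T3-L1 is a mouse fibroblast line whose confluent cells turn into fat cells when they are given a hormonal cocktail. The 2 libraries were taken by their labels from a series of 8 RNA-seq libraries, 1 for each of 4 conditions at 2 days. The ML-60218 library came from cells labelled with the agent ML-60218 and no shRNA, and the control library came from cells that carried an empty shRNA vector. The labels do not say whether the ML-60218 cells also carried that vector, nor the dose, the vehicle or the start of the treatment, so the vector and the treatment cannot be told apart. Both day 2 cultures had received 10 µg/mL insulin, 2 µM dexamethasone, 0.5 mM IBMX (a phosphodiesterase inhibitor) and 25 µg/mL ascorbic acid after reaching confluence. The day 0 libraries of the ML-60218 and control cultures came from confluent cells that had not yet received the cocktail. The remaining 4 libraries held shMaf1 and shBrf1 knockdown cells, of which the day 2 libraries are used below for side-by-side values.

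RNA polymerase III transcribes tRNAs, 5S rRNA and other small noncoding RNAs; ML-60218 is a small molecule that inhibits it, Brf1 is a subunit of its initiation factor TFIIIB, and Maf1 is its repressor. In adipocyte differentiation, a first wave of the transcription factors C/EBPβ and C/EBPδ is followed by PPARγ and C/EBPα, which switch on the genes of lipid storage. The same cells lose the contractile and matrix genes of fibroblasts as they store fat. Poly(A) libraries such as these barely sample the direct products of RNA polymerase III, so what follows is about messenger RNA.

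The ML-60218 library held 29207262 counts and the control library 30791487. Each gene is given as CPM, its count per 1000000 counts of the library, after scaling by TMM (trimmed mean of M values) over the 8 libraries. A log2 ratio is log2 of (CPM + 0.5) in the ML-60218 library over the same in the control library. With 1 library per group there is no replicate spread and no test, so genes are called higher or lower by a size rule: a log2 ratio of at least 1 either way, in genes at 1 CPM or more in either library. Folds are ratios of CPM with an exact 95% interval that covers counting error only, not the variation between cultures. The libraries were sequenced in 1 lane each, lane 8 for ML-60218 and lane 5 for control, so lane and treatment cannot be told apart. The ML-60218 library had a deposited transcript skewness score of 0.22 against 0.15 in control, a ratio of 3′ to 5′ untranslated reads of 7.88 against 6.09, and 0.66% of reads from ERCC spike-in RNAs against 0.46%. The part of these differences in the results was not tested.

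Markers of adipocytes and of preadipocytes were both expressed in both cultures. The summed level of 7 adipocyte markers (Fabp4, Adipoq, Cidec, Plin1, Lpl, Cd36 and Cfd) was 1585 CPM with ML-60218 against 534.5 CPM in control. Lpl alone gave 777.5 CPM of this with ML-60218 and 390.2 CPM in control. The summed level of 7 preadipocyte and fibroblast markers (Dlk1, Pdgfra, Pdgfrb, Thy1, Cd34, Ly6a and Col1a1) was 3149 CPM with ML-60218 against 5211 CPM in control. Of other lineages, the 5 smooth muscle and myofibroblast markers summed to 9.54 CPM with ML-60218 and 48.69 CPM in control. Most of this came from Acta2, at 8.28 CPM with ML-60218 and 42.49 CPM in control. The 5 osteoblast and chondrocyte markers summed to 14.69 CPM with ML-60218 and 16.32 CPM in control. Runx2 alone gave 14.57 CPM of this with ML-60218 and 16.22 CPM in control. Markers of the remaining lineages were scarce. The 5 macrophage and leukocyte markers summed to 1.87 CPM with ML-60218 and 1.72 CPM in control. Ptprc and Emr1 had 0 counts in both. The 3 endothelial markers summed to 0.572 CPM with ML-60218 and 0.506 CPM in control, and the 4 epithelial markers to 0.229 CPM with ML-60218 and 0.101 CPM in control. In a bulk library, more cells that had turned on a gene and more RNA of it per cell cannot be told apart.

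At day 2, 214 genes were higher with ML-60218 and 375 were lower, of 12073 genes at 1 CPM or more in either library, which is 1.77% and 3.11% of them. Of these calls, 36.3% were higher; when the libraries were scaled to the ERCC spike-ins instead, the split became 64 higher and 1495 lower (4.11% higher), because that scaling moves the median log2 ratio of all genes to -0.58. All directions below are relative to the bulk of genes, whose median log2 ratio under TMM was 0.00, with 5% and 95% points at -0.79 and 0.55. At day 0, before the cocktail, the same comparison called only 5 genes higher (0.041%) and 9 lower (0.0738%) of 12199. The lists with the largest shares of higher members at day 2 were glycolysis, targets of hypoxia-inducible factor (HIF) and adipocyte genes. Those with the largest shares of lower members were interferon-inducible, matricellular and chemokine genes.

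**Figure D1:**
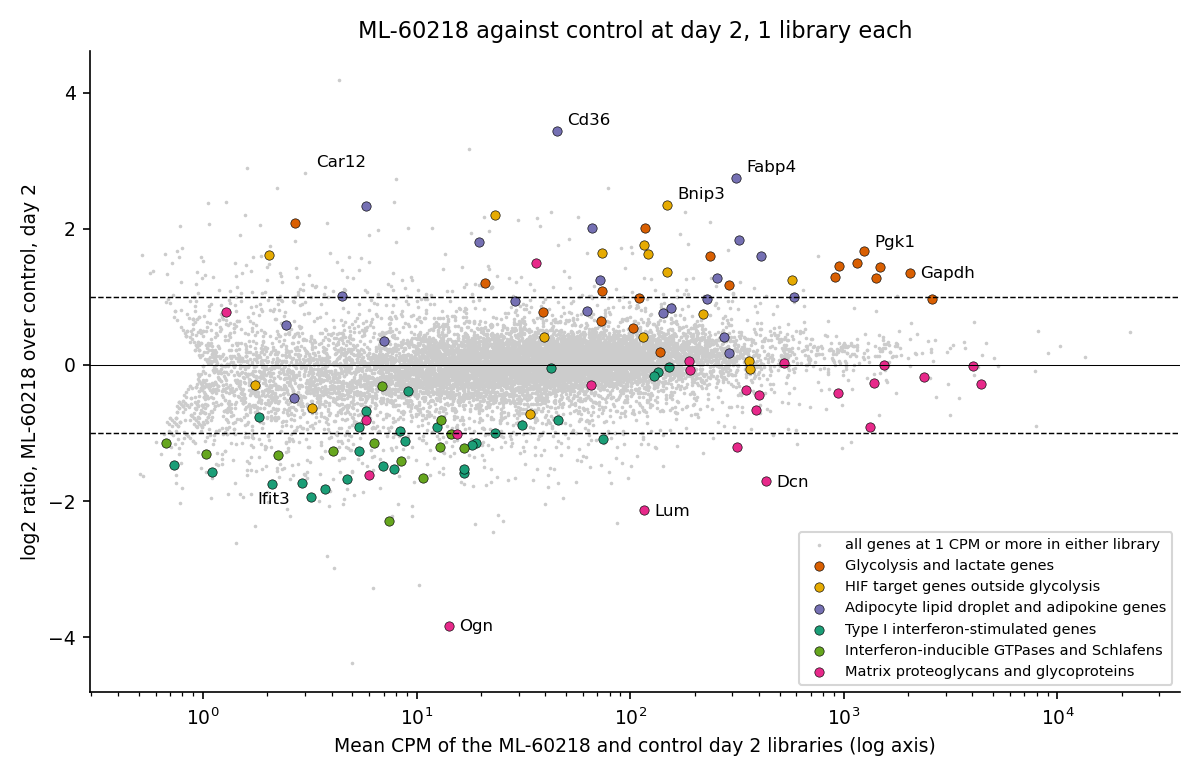
Each point is 1 gene at 1 CPM or more in either library, with the mean CPM of the ML-60218 and control day 2 libraries on a log x axis and the log2 ratio of ML-60218 over control on the y axis; dashed lines mark the size rule at 1 and -1. Coloured points are members of 6 gene lists: glycolysis, HIF target and adipocyte genes lie mostly above 0, whereas interferon-stimulated genes and GTPases all lie below 0, and Ogn lies lowest among the coloured points at -3.84.

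Lists of genes were described over their members at a mean of at least 1 CPM over the 8 libraries. Of the 12137 genes that meet that filter, 1.47% were higher at day 2 and 2.96% were lower. These 2 shares are the background for every count of list members below.

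Most genes of the glycolytic pathway were higher with ML-60218. Of 19 measured genes of glycolysis and lactate handling, 13 were higher past the size rule, 6 were not past it, all 19 lay above 0, and the median log2 ratio was 1.28. Under spike-in scaling 3 members were higher, with a median of 0.67. Pgk1, phosphoglycerate kinase (mm10 chrX:106187100-106203699), had 1886 CPM with ML-60218 and 589.6 CPM in control, a fold of 3.20 (3.14 to 3.25). Ldha, which makes lactate from pyruvate, had 2148 CPM with ML-60218 and 792.3 CPM in control, 2.71-fold higher (2.67 to 2.75). Gapdh, often used as a reference transcript, had 2934 CPM with ML-60218 against 1154 CPM in control, 2.54-fold higher (2.51 to 2.58). These 3 genes were also among those with the largest gain in CPM of any called gene, with Eno1 and Scd2. Aldoa (1707 CPM with ML-60218, 604.6 CPM in control), Tpi1 (1398 CPM with ML-60218, 509.0 CPM in control) and Pfkl (354.9 CPM with ML-60218, 116.9 CPM in control), which encode aldolase, triosephosphate isomerase and a phosphofructokinase, rose alongside them. Pdk1, a kinase that inhibits pyruvate dehydrogenase, had 187.7 CPM with ML-60218 and 46.33 CPM in control, 4.05-fold higher (3.82 to 4.30). Slc16a3, a lactate exporter, was 6.57-fold higher (4.11 to 11) at a low level of 4.66 CPM with ML-60218 and 0.708 CPM in control. It is 1 of the 13, but its mean of 1.34 CPM over the 8 libraries would lie under the filter without the ML-60218 day 2 library. The filter thus favoured this call. The members not past the rule were Pkm (log2 ratio 0.97), Pfkp (0.98), Pfkfb3 (0.78), Hk2 (0.64), Hk1 (0.55) and Pfkm (0.19). Gapdh, Eno1 and other glycolytic genes have processed pseudogenes or close copies, so their counts are uncertain by the reads that the deposited counting assigned between them.

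At day 0 the same 19 genes had a median log2 ratio of 0.05 with ML-60218 against control, and none was past the size rule. Pgk1 had 328.6 CPM with ML-60218 and 326.4 CPM in control at day 0, and Ldha had 277.6 CPM with ML-60218 and 251.7 CPM in control. From day 0 to day 2 the glycolysis list gained a median of 2.03 on the log2 scale in the ML-60218 culture and 0.83 in the control culture. The difference at day 2 was therefore a larger gain with ML-60218 over near-equal starting levels.

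HIF targets outside glycolysis were the second list to be higher. HIF is the oxygen-sensing transcription factor, and its targets include its own prolyl hydroxylases, collagen prolyl hydroxylases and mitophagy receptors. Of 16 measured members, 8 were higher, 8 were not past the rule and none was lower, and the median log2 ratio was 1.00. Under spike-in scaling 6 were higher and 2 lower, with a median of 0.39. Bnip3, a mitophagy receptor, had 247.7 CPM with ML-60218 and 48.09 CPM in control, 5.15-fold higher (4.86 to 5.46). Egln3, a HIF prolyl hydroxylase, had 38.65 CPM with ML-60218 against 8.03 CPM in control, 4.82-fold higher (4.18 to 5.57), and its relative Egln1 had 111.7 CPM with ML-60218 and 35.24 CPM in control. At day 0 Egln3 had 7.75 CPM with ML-60218 and 7.47 CPM in control, and Egln1 had 34.16 CPM with ML-60218 and 34.28 CPM in control. The list median at day 0 was 0.02, with 1 member already higher past the rule. That member was Angptl4, also among the 8 higher at day 2, whose levels are given below with the adipocyte genes. Higd1a (179.6 CPM with ML-60218, 52.34 CPM in control), P4ha2 (182.4 CPM with ML-60218, 58.64 CPM in control) and Ankrd37 (3.32 CPM with ML-60218, 0.742 CPM in control) rose too. Car12, a membrane carbonic anhydrase that lay under the filter on the mean of 8 libraries, had 5.65 CPM with ML-60218 and 0.371 CPM in control, 15.2-fold higher (8.27 to 31.2).

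Not every HIF target followed. Vegfa, the vascular growth factor, had a log2 ratio of 0.06, Ndrg1 0.41, Kdm3a 0.41 and Adm, adrenomedullin, -0.30. The HIF subunit genes were not higher: Hif1a had 355.2 CPM with ML-60218 and 371.0 CPM in control, and Epas1, which encodes HIF-2α, had 25.45 CPM with ML-60218 and 42.42 CPM in control. Of the other genes among the 15 most raised, Ak4, a mitochondrial adenylate kinase, had 13.54 CPM with ML-60218 and 2.16 CPM in control, and Gbe1, the glycogen branching enzyme, had 34.15 CPM with ML-60218 and 7.18 CPM in control. Ero1l, an oxidase of protein folding, had 382.6 CPM with ML-60218 and 88.42 CPM in control.

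The hypoxia response element has the core ACGTG or GCGTG, which was searched on both strands in RefSeq promoters of build GRCm38.p6, from 250 bases before to 50 after the first listed start of each gene. It occurred in 43.8% of all 27025 promoters and in 64.6% of the promoters of the 8847 genes measured at that mean level. It was found in 13 of 19 glycolysis promoters (68.4%), a share near that of expressed genes, and in 11 of 12 matched HIF target promoters (91.7%). The core is short and ACGTG also lies inside the E-box CACGTG, so a match is a description of letters only. The windows of 3 higher genes of these lists are shown because their transcripts carry the result above; each is 30 bases of the gene's strand, with the core, or its complement read on that strand, in capitals.
Pgk1, chrX:106186956-106186985, plus strand: caaatggaagtagCACGTctcactagtctc
Egln3, chr12:54204087-54204116, minus strand: atgtgcatctcagACGTGagatccaggttt
P4ha2, chr11:54100921-54100950, plus strand: gcgggaggtggggACGTGgcggaggctcaa
In Pgk1 the core lies on the opposite strand and starts 131 bases before the start site, and in Egln3 it starts 229 bases before it.

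Genes of fat storage were higher with ML-60218. Of 21 measured adipocyte lipid droplet and adipokine genes, 10 were higher and none was lower, 20 lay above 0, and the median log2 ratio was 0.99. Under spike-in scaling 6 were higher and none lower, with a median of 0.38. Cd36, a fatty acid transporter (mm10 chr5:17781690-17888959), had 83.63 CPM with ML-60218 against 7.28 CPM in control, 11.5-fold higher (9.98 to 13.3), the largest ratio on the list. Fabp4, the fatty acid binding protein that marks adipocytes (chr3:10204343-10208576), had 546.0 CPM with ML-60218 and 81.10 CPM in control, 6.73-fold higher (6.45 to 7.03). Cidec, a lipid droplet protein, had 105.8 CPM with ML-60218 and 25.93 CPM in control, 4.08-fold higher (3.76 to 4.42). The adipokine resistin (Retn) had 10.00 CPM with ML-60218 and 1.59 CPM in control, and the droplet coat gene Plin1 had 30.90 CPM with ML-60218 and 8.43 CPM in control. Adipoq, the adipokine adiponectin, was not past the rule: it had 38.15 CPM with ML-60218 and 19.69 CPM in control, a fold of 1.94 (1.75 to 2.15). Lpl (log2 ratio 0.99), Lipe (0.98) and Gpd1 (0.83) stood just under the rule, and Mest was the 1 member below 0, at -0.49.

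At day 0 the levels of these genes varied widely. Lpl had 435.4 CPM with ML-60218 and 351.8 CPM in control at day 0. Fabp4 had 4.64 CPM with ML-60218 and 3.23 CPM in control at day 0, and Cidec had 0.299 CPM with ML-60218 and 0.491 CPM in control. Cd36 differed already at day 0, with 3.41 CPM for ML-60218 and 1.33 CPM for control. The secreted lipase inhibitor Angptl4, a target of both PPARs and HIF, had 323.2 CPM with ML-60218 and 65.39 CPM in control at day 0, and 801.1 CPM with ML-60218 and 338.2 CPM in control at day 2. Cd36 and Angptl4 were the 2 genes higher past the size rule at both days, and AK189601 (an unnamed clone), Dcn and Spib were the 3 lower at both, a list read off after the values were seen. These 5 genes, with 2 that changed direction, make 1.19% of the day 2 calls and 50% of the 14 day 0 calls. Over all genes at 1 CPM or more in either library, 1.77% were higher and 3.11% lower at day 2. At day 0 these shares were 0.041% and 0.0738%. The 50% rests on only 14 genes.

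**Figure D2:**
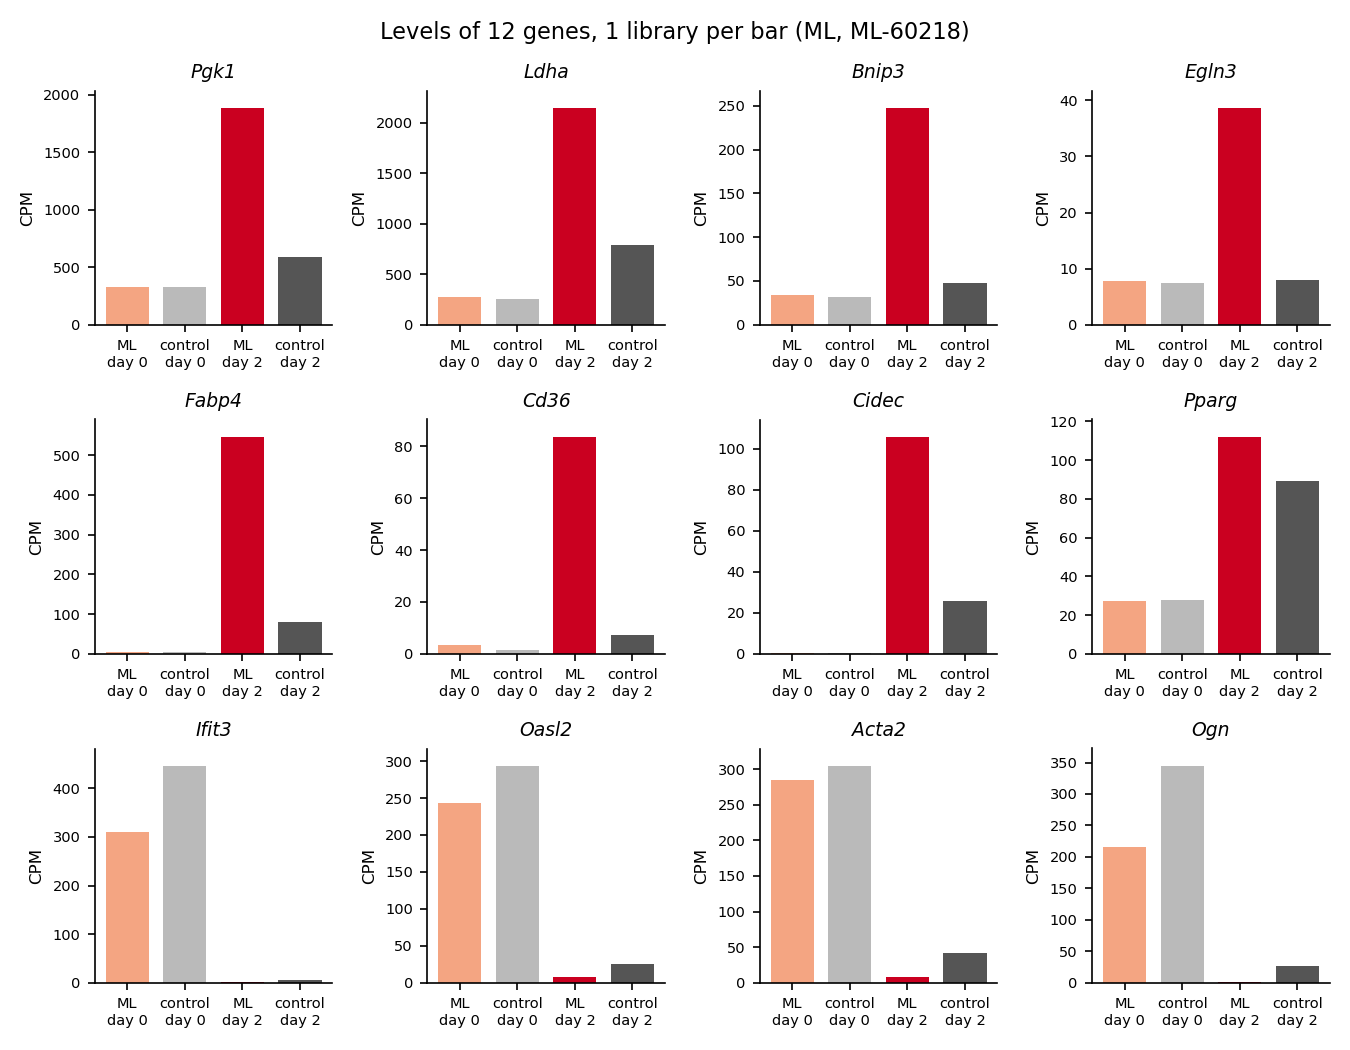
Bars give CPM on a linear axis from 0 in 4 libraries, ML-60218 and control at day 0 and at day 2, for 12 genes, with 1 library per bar and no error bar. Pgk1, Ldha, Bnip3 and Egln3 start level at day 0 and are higher with ML-60218 at day 2, Fabp4, Cd36 and Cidec rise from near 0, Pparg differs little, and Ifit3, Oasl2, Acta2 and Ogn end lower with ML-60218.

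Some enzymes of triglyceride synthesis were higher. Of 23 measured genes of fatty acid and triglyceride synthesis, 7 were higher and none lower, with a median log2 ratio of 0.45 that becomes -0.16 under spike-in scaling. Among those not past the rule were Gpam (log2 ratio 0.69), Agpat6 (0.15), Lpin2 (-0.16) and Acacb (-0.73). Agpat9 (60.13 CPM with ML-60218, 13.12 CPM in control), Dgat2 (81.04 CPM with ML-60218, 22.12 CPM in control) and Dgat1 (177.5 CPM with ML-60218, 73.41 CPM in control) encode acyltransferases of the pathway. Scd1, the stearoyl-CoA desaturase, had 1134 CPM with ML-60218 and 374.7 CPM in control, 3.02-fold higher (2.96 to 3.09), and Scd2 had 2380 CPM with ML-60218 and 1178 CPM in control. Lpin1, the phosphatidate phosphatase lipin, had 117.3 CPM with ML-60218 and 54.05 CPM in control. The 7 lipolysis and droplet turnover genes all lay above 0 with a median of 0.82, and G0s2, an inhibitor of the lipase ATGL, was the 1 past the rule (19.61 CPM with ML-60218, 7.05 CPM in control).

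Mitochondrial and peroxisomal oxidation genes lay slightly above the bulk. All 25 fatty acid oxidation and peroxisome genes were above 0, with a median of 0.44 (-0.13 under spike-in scaling), and 3 passed the rule. Ppargc1a, the coactivator PGC-1α, had 14.96 CPM with ML-60218 and 3.34 CPM in control, 4.48-fold higher (3.59 to 5.64). Ucp2, a mitochondrial carrier, had 519.9 CPM with ML-60218 and 236.6 CPM in control, and Pex11a, a peroxisome division gene, had 14.04 CPM with ML-60218 and 6.31 CPM in control. All 32 nuclear subunits of oxidative phosphorylation were above 0 with a median of 0.36 (-0.25 under spike-in scaling), and none passed the rule. Cholesterol synthesis genes had a median of 0.43 (-0.18 under spike-in scaling) with none of 24 past the rule, and already 0.53 at day 0.

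The transcription factors that drive adipogenesis differed less than the fat storage genes. Of 19 measured, 1 was higher and the median log2 ratio was 0.07. Under spike-in scaling none was higher and 3 were lower, with a median of -0.53. Pparg had 112.0 CPM with ML-60218 and 89.43 CPM in control, a fold of 1.25 (1.19 to 1.32). Cebpa had 117.3 CPM with ML-60218 against 60.60 CPM in control, a fold of 1.94 (1.83 to 2.05) that missed the rule. Cebpb, which acts early, had 91.60 CPM with ML-60218 and 91.99 CPM in control, and its partner Cebpd had 48.34 CPM with ML-60218 and 78.27 CPM in control. Klf15, the 1 member past the rule, had 4.20 CPM with ML-60218 and 1.25 CPM in control, 3.36-fold higher (2.30 to 5.02). Its mean over the 8 libraries was 1.31 CPM and would lie under the filter without the ML-60218 day 2 library. The filter thus favoured this call. Ebf1 was at the other end of the list, with 16.60 CPM for ML-60218 and 33.18 CPM for control.

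**Figure D3:**
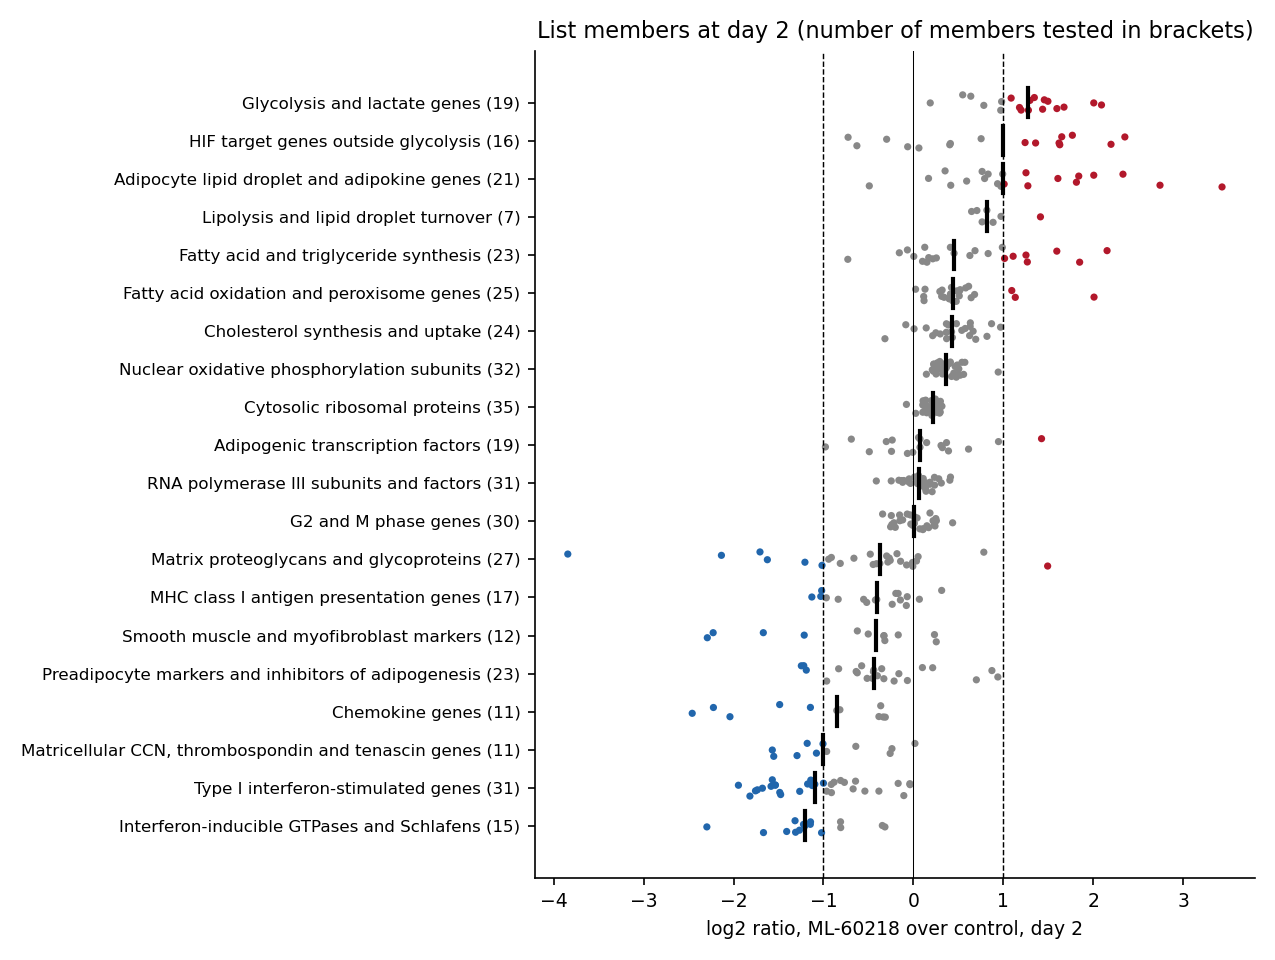
Each point is 1 measured member of a gene list and the x axis is its log2 ratio of ML-60218 over control at day 2; red points are higher and blue points lower past the size rule (dashed lines at 1 and -1), and black bars mark list medians. Medians run from 1.28 for glycolysis at the top to -1.21 for interferon-inducible GTPases and Schlafens at the bottom, with RNA polymerase III factors and cell cycle genes near 0.

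Components of the RNA polymerase III system stood near the bulk of genes. None of 31 measured subunits and factors passed the rule, the median log2 ratio was 0.07, and the members ranged from Snapc4 at -0.41 to Polr3g at 0.41. Maf1 had 61.77 CPM with ML-60218 and 59.75 CPM in control, with an interval of the fold of 0.966 to 1.11, and Brf1 had 25.52 CPM with ML-60218 and 27.75 CPM in control. Rmrp and Rpph1, RNA components of the ribonucleases MRP and P and themselves polymerase III products, were at 0.114 CPM and 0.153 CPM with ML-60218 and at 0.202 CPM and 0.169 CPM in control, too few counts to show a difference. The inhibition of the polymerase itself is therefore not measured by these libraries.

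Genes of translation lay slightly above the bulk, and those of the cell cycle were near it. The 35 cytosolic ribosomal proteins had a median log2 ratio of 0.22 (-0.39 under spike-in scaling), and 34 of them lay above 0. The 28 ribosome biogenesis genes also had 0.22 (-0.39), with 22 above 0. None of either list was past the rule, and the 75% point of all tested genes was 0.20. The 30 genes of G2 and M phase had a median of 0.01 and ranged from Kif20a at -0.34 to Aurka at 0.44, and the 35 genes of DNA replication had -0.02, with no call in either list. Ccnd1, cyclin D1, had 75.39 CPM with ML-60218 and 150.7 CPM in control, at the edge of the rule, and Cdk6 was lower (1.68 CPM with ML-60218, 4.55 CPM in control).

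Interferon-stimulated genes were lower with ML-60218. Of 31 measured type I interferon-stimulated genes, 16 were lower, none was higher, all lay below 0, and the median log2 ratio was -1.10. Under spike-in scaling 24 were lower, with a median of -1.58. Of 15 interferon-inducible GTPases and Schlafen genes, 11 were lower and all lay below 0, with a median of -1.21. Ifit3, an antiviral protein of the IFIT family, had 1.03 CPM with ML-60218 and 5.40 CPM in control, 5.24-fold lower (3.47 to 8.20). Oasl2, of the oligoadenylate synthetase-like family, had 8.05 CPM with ML-60218 and 25.12 CPM in control, 3.12-fold lower (2.68 to 3.65). Irf7, the transcription factor that amplifies interferon output, had 1.98 CPM with ML-60218 and 7.45 CPM in control. Iigp1 (2.18 CPM with ML-60218, 12.65 CPM in control) and Gbp7 (4.88 CPM with ML-60218, 16.59 CPM in control) are GTPases that act on intracellular pathogens.

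These genes had fallen in both cultures between day 0 and day 2. Ifit3 had 310.0 CPM with ML-60218 and 446.4 CPM in control at day 0, and Oasl2 had 243.5 CPM with ML-60218 and 293.5 CPM in control. From day 0 to day 2 the interferon-stimulated list changed by a median log2 of -3.71 in the ML-60218 culture and -2.86 in the control culture. At day 0 the list median of ML-60218 against control was already -0.26, with 1 member, the chemokine Cxcl10, lower past the rule at that day, at a ratio just beyond the fold threshold, and none higher. The day 2 difference thus rests on low remaining levels, and for the weakest members on few counts.

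The core of the interferon-stimulated response element, GAAANNGAAA on either strand, was found in 3.49% of all promoters and in 2.95% of those of expressed genes. It occurred in 11 of 22 matched promoters of the type I list. Of the 16 lower genes of that list, only 10 had a matched promoter and were searched, and 5 of these held the core, the same share. In the GTPase and Schlafen list it occurred in 10 of 11 matched promoters, and in 8 of the 8 of these whose genes were lower; the other 3 lower genes of that list were not searched. Windows of 5 of the lower genes are shown because their promoters carry that core, in capitals, as defined above.
Ifit3, chr19:34583397-34583426, plus strand: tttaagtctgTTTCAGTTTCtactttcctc
Oas1a, chr5:120907520-120907549, minus strand: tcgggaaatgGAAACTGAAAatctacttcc
Gbp7, chr3:142530273-142530302, plus strand: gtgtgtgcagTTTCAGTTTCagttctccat
Irgm2, chr11:58214903-58214932, plus strand: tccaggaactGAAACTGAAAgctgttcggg
Tgtp1, chr11:48992304-48992333, minus strand: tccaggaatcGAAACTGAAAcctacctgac
In Ifit3 and Gbp7 the core is on the opposite strand and reads as TTTCNNTTTC here. It starts 122 bases before the start site in Ifit3, 14 in Oas1a, 53 in Gbp7, 64 in Irgm2 and 77 in Tgtp1. Irgm2, Tgtp1 and the guanylate-binding proteins belong to families of near-identical genes, so their counts may be shared among copies.

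Antigen presentation and chemokine genes lay on the same side. Of 17 MHC class I presentation genes, 3 were lower and the median log2 ratio was -0.41; these were H2-Q4, Nlrc5 and the peptide transporter Tap1 (19.15 CPM with ML-60218, 39.35 CPM in control). Of 11 measured chemokine genes, 5 were lower, all lay below 0, and the median was -0.85. Ccl2, which attracts monocytes, had 6.64 CPM with ML-60218 and 38.78 CPM in control, 5.84-fold lower (4.98 to 6.89), and at day 0 it had 48.67 CPM with ML-60218 and 69.48 CPM in control. Its neighbour Ccl7 had 15.30 CPM with ML-60218 and 64.47 CPM in control, and Ccl9 had 3.01 CPM with ML-60218 and 15.92 CPM in control. The 20 genes of NF-κB and inflammation were mixed: 4 were lower, none was higher, 13 lay below 0 and 7 above it, and the median was -0.21. Among the lower ones were Il33 (18.58 CPM with ML-60218, 54.80 CPM in control) and Csf1 (73.33 CPM with ML-60218, 156.3 CPM in control). Members above 0 included Ptgs2 (log2 ratio 0.47) and Nfkbia (0.42). Il1rn, the interleukin 1 receptor antagonist, had 5.88 CPM with ML-60218 and 31.80 CPM in control.

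Several contractile, matricellular and preadipocyte genes were lower with ML-60218. Of 12 smooth muscle and myofibroblast markers, 4 were lower with a list median of -0.42: Acta2, smooth muscle actin (mm10 chr19:34240336-34255373), had 8.28 CPM with ML-60218 and 42.49 CPM in control, 5.13-fold lower (4.44 to 5.96). Myl9 (0.572 CPM with ML-60218, 4.52 CPM in control), Cnn2 (46.58 CPM with ML-60218, 149.2 CPM in control) and Tpm1 (79.40 CPM with ML-60218, 184.9 CPM in control) encode a myosin light chain, a calponin and a tropomyosin. All 4 had log2 ratios between -0.23 and -0.09 at day 0, where Acta2 had 285.4 CPM with ML-60218 and 304.7 CPM in control. The other 8 markers were not past the rule at day 2. Among them Flna had a log2 ratio of -0.623, Smtn -0.329 and Vcl -0.168, while Tpm2 (0.235) and Des (0.255) lay above 0. Of 11 matricellular genes, 6 were lower, with a median of -1.0; Thbs1, thrombospondin 1, had 39.83 CPM with ML-60218 and 119.2 CPM in control and Thbs2 had 126.4 CPM with ML-60218 and 310.8 CPM in control. Of 23 preadipocyte markers and inhibitors of adipogenesis, 3 were lower and the median was -0.44. Pdgfra, the receptor that marks adipose progenitors, had 586.3 CPM with ML-60218 and 1365 CPM in control, 2.33-fold lower (2.29 to 2.37), while the control culture had 638.6 CPM at day 0. Dlk1, the inhibitor known as Pref-1, had 497.8 CPM with ML-60218 and 741.6 CPM in control and was not past the rule, and 3 members were well above 0 without passing it: Foxo1 (0.94), F3 (0.87) and Hes1 (0.70).

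The CArG box, the site of serum response factor, was found by its consensus in 1.57% of all promoters, in 3 of 10 matched promoters of the smooth muscle list, and in 2 of the 4 of these whose genes were lower, which are shown with the box in capitals. It was found in 0 of 6 matched promoters of the matricellular list and in 1 of 15 of the immediate early list, whose gene was not among those lower.
Myl9, chr2:156775293-156775322, plus strand: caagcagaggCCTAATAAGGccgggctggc
Cnn2, chr10:79988534-79988563, plus strand: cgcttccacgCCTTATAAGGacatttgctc
The box starts 161 bases before the start site in Myl9 and 56 in Cnn2.

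Several small leucine-rich proteoglycan genes, which encode proteins that bind collagen, were lower and others were not past the rule: Bgn had a log2 ratio of -0.18, Aspn -0.37 and Fmod -0.48. Ogn, osteoglycin (mm10 chr13:49608071-49624500), had 1.41 CPM with ML-60218 and 26.94 CPM in control, 19.1-fold lower (13.7 to 27.3), and had 216.5 CPM with ML-60218 and 344.7 CPM in control at day 0. Lum, lumican, had 42.69 CPM with ML-60218 and 189.3 CPM in control at day 2, 4.43-fold lower (4.16 to 4.73), after 5.21 CPM with ML-60218 and 7.96 CPM in control at day 0. Dcn, decorin, had 203.0 CPM with ML-60218 and 663.4 CPM in control, 3.27-fold lower (3.17 to 3.37). Dcn already differed at day 0, when it had 101.8 CPM with ML-60218 and 205.1 CPM in control, a log2 ratio of -1.01 against -1.71 at day 2. Lum and Dcn thus went up in both cultures, by less with ML-60218, whereas Ogn went down in both, by more with ML-60218. Over the 27 measured proteoglycan and glycoprotein genes, 6 were lower, 1 was higher (Spon2, with 53.72 CPM with ML-60218 and 18.75 CPM in control) and the median was -0.37. Collagen chain genes had a median of -0.15 with 1 of 19 past the rule, Col15a1, which was higher (34.87 CPM with ML-60218, 8.53 CPM in control). Col3a1, among the most abundant transcripts, had 5570 CPM with ML-60218 and 10370 CPM in control.

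Imprinted and Wnt pathway genes held a few large differences. Of 12 imprinted genes 4 were lower with a median of -0.56: Igf2, a growth factor, had 25.56 CPM with ML-60218 and 85.79 CPM in control, and Peg3, Plagl1 and H19 were the others. Of 18 genes of Wnt ligands, receptors, antagonists and targets, 2 were lower and the median was -0.10. Sfrp2, a secreted Wnt antagonist, had 3.32 CPM with ML-60218 and 15.61 CPM in control, and Wnt6, an inhibitor of adipogenesis, had 2.14 CPM with ML-60218 and 6.47 CPM in control, 3.03-fold lower (2.24 to 4.16). The largest losses in CPM among called genes were those of Ptn (677.3 CPM with ML-60218, 1492 CPM in control), Pdgfra, Il6st (371.3 CPM with ML-60218, 832.8 CPM in control), Dcn and Ppap2b. Ptn encodes the growth factor pleiotrophin and Il6st the gp130 subunit of interleukin 6 family receptors. Further genes among the 15 most reduced were the prokineticin receptor Prokr1 (0.763 CPM with ML-60218, 11.70 CPM in control), the transcription factor Osr2 (1.56 CPM with ML-60218, 19.02 CPM in control), the corepressor Runx1t1 (2.37 CPM with ML-60218, 12.92 CPM in control) and Mgp, matrix Gla protein (8.28 CPM with ML-60218, 39.89 CPM in control). The fourth lowest, Raver1-fdx1l, is a readthrough entry that overlaps 2 other genes, and its counts are uncertain.

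The same lists were read in the knockdown libraries of day 2, each against the same control library, so the comparisons are not independent of each other. The adipocyte list had medians of 0.99 with ML-60218, 2.01 with shBrf1 and -1.37 with shMaf1. The interferon-stimulated list had medians of -1.10 with ML-60218, -0.995 with shBrf1 and 2.18 with shMaf1. The glycolysis list had 1.28 with ML-60218, -0.03 with shBrf1 and -0.31 with shMaf1, and the HIF target list had 1.00 with ML-60218, -0.09 with shBrf1 and -0.30 with shMaf1. Fabp4 stood at 546.0 CPM with ML-60218, 769.2 CPM with shBrf1, 8.02 CPM with shMaf1 and 81.10 CPM in control. Pgk1 stood at 1886 CPM with ML-60218, 677.5 CPM with shBrf1, 531.3 CPM with shMaf1 and 589.6 CPM in control. Egln3 stood at 38.65 CPM with ML-60218, 11.95 CPM with shBrf1, 4.96 CPM with shMaf1 and 8.03 CPM in control. Of these libraries, the ML-60218 one had the highest levels of Pgk1 and Egln3, while Fabp4 was highest with shBrf1. The shBrf1 library had a skewness score of 0.36 and the shMaf1 library 0.08, against the 0.22 of ML-60218. The shBrf1 library also stood apart with 7.8% of reads from rRNA, against 0.84% with ML-60218 and 0.89% in control, and with a ratio of 3′ to 5′ untranslated reads of 9.56. The 2 measured polymerase III transcripts, Rmrp and Rpph1, had means of 3.975 and 2.148 CPM over the 8 libraries. They reached the filter on that mean through the shBrf1 library at day 2. Their median log2 ratio of 5.07 there against control was thus made high by the filter, and no effect of shBrf1 can be read from it. The part of the skewness, rRNA and untranslated read values in the shBrf1 list medians was not tested.

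**Figure D4:**
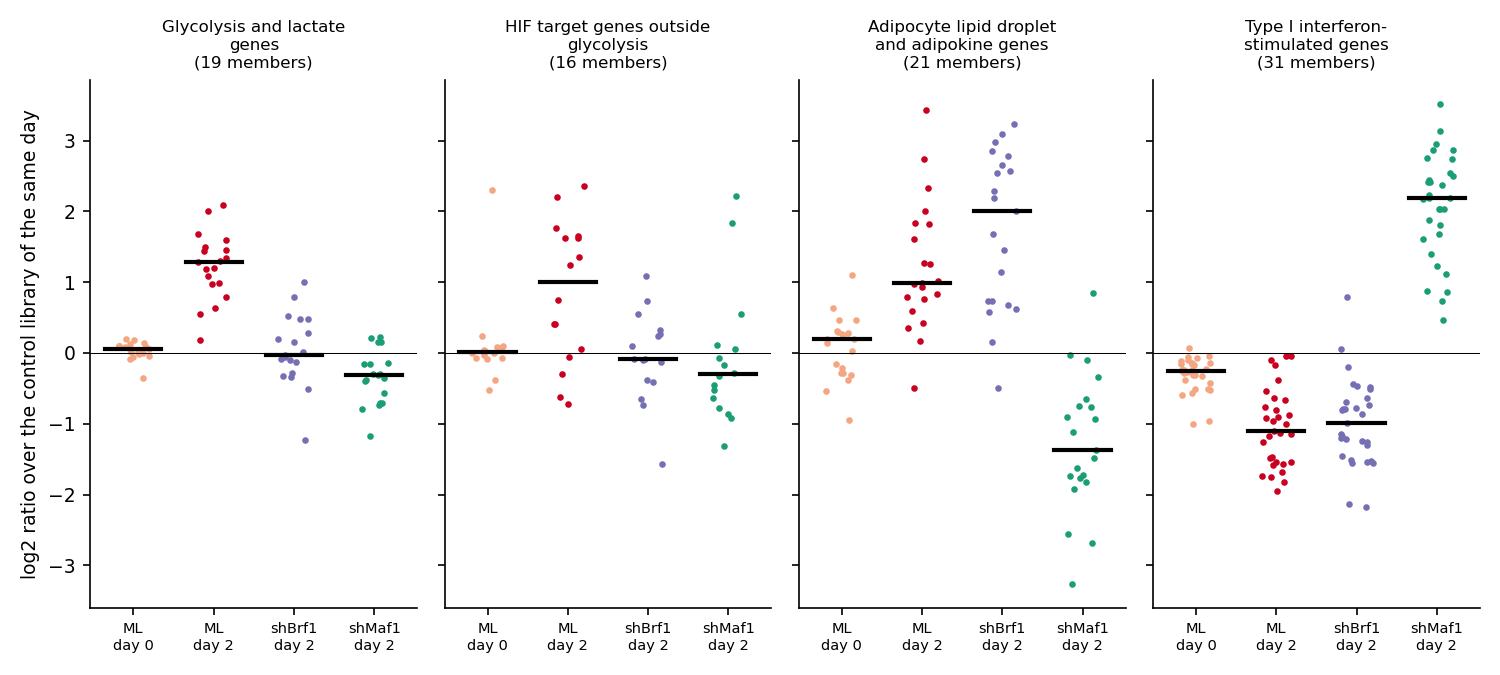
The y axis gives the log2 ratio over the control library of the same day, and each point is 1 measured member of 4 lists, for ML-60218 at day 0 and for ML-60218, shBrf1 and shMaf1 at day 2; black bars are medians. Glycolysis and HIF target medians stand at 1.28 and 1.00 with ML-60218 at day 2 and from -0.31 to 0.05 for the remaining comparisons, whereas the adipocyte and interferon medians lie on the same side for ML-60218 and shBrf1.

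The length of the transcripts moved slightly with the comparison. Among tested genes with a known length, those in the lowest of 3 length classes had a median log2 ratio of 0.08, with 1.83% higher and 2.55% lower. Those in the highest class had a median of -0.07, with 0.952% higher and 3.09% lower. With a smooth length trend taken out of the log2 ratios, the size rule called 214 genes higher and 364 lower. The glycolysis median, less that of all genes, became 1.22. Lists of shorter transcripts moved more. Without that subtraction, the ribosomal protein median went from 0.22 to 0.11 and the oxidative phosphorylation median from 0.36 to 0.27.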

How the data were processed

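RNA-seq libraries of 3T3-L1 cells were made with a stranded poly(A) kit, per the labels' protocols, and the submitters' processing notes name STAR 2.4 and build mm10. The deposited gene tables hold estimated counts per gene, given as whole numbers, from which library totals and CPM were computed. The counting tool and its use of strand are not given in the sources used here. The authors' deposited quality sheet gave the skewness score, read counts (untranslated regions, ERCC), lanes and percent values. Fold changes and p-values in the deposited tables were not used.

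Counts were scaled with edgeR TMM (calcNormFactors) over the 8 libraries and compared with a pseudocount of 0.5 CPM. Intervals are exact (Clopper-Pearson, 95%) on the 2 counts and cover counting error only; a fold against 0 counts would use 3 counts. No test was run, since each group has 1 library. The steps were tested on simulated data. Coordinates are those of the tables, 1-based. Sequences are from RefSeq. The members and gene lists were chosen with earlier results of these data known. Named are 10 fixed genes, the 15 highest and 15 lowest called genes at 5 CPM or more in either library, up to 6 members per list and direction with any member of marker lists, and the genes with the 5 highest levels or largest CPM differences; other list members, named to account for a list, were chosen after their values were seen. One gene that this rule names is not reported here. Alternatives were DESeq2 size factors, TMM over the 2 libraries, library totals, spike-ins, other pseudocounts and floors, and removal of a length trend.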

Additional observations from a re-analysis of the deposited data

Results flagged for a closer look

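Cables1, which encodes a Cdk5 and Abl substrate, passed the size rule in opposite directions at the 2 days. Its log2 ratio of ML-60218 over control was 1.10 at day 2 (10.76 CPM with ML-60218, 4.76 CPM in control) and -1.02 at day 0 (0.568 CPM with ML-60218, 1.67 CPM in control). BC096410, an entry named only by a cDNA clone, did the same, with a log2 ratio of 1.25 at day 2 (12.25 CPM with ML-60218, 4.86 CPM in control) and -1.98 at day 0 (0 CPM with ML-60218, 1.47 CPM in control). With 1 library per group the difference between the days was not tested.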

How the results depend on the processing

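Without replicates no library could be left out, and the counting intervals understate the error between cultures. No paired analysis was possible because each group had 1 library. Against 214 genes higher and 375 lower, spike-in scaling gave 64 and 1495, with a median log2 ratio of all genes of -0.58, and a floor of 5 CPM gave 146 and 238. The 8 other alternatives, including 1 chosen after seeing the data (leaving out unnamed and mitochondrial entries: 177 and 324), gave 167 to 262 higher and 281 to 490 lower. Of 143 named genes past the rule, 111 kept their call under spike-in scaling and 133 to 143 under each of the 6 other settings, and none changed sign. Library totals moved the median of all genes to -0.10. Over spike-in scaling, library totals, the other scaling factors and removal of the length trend, the list medians ran from 0.67 to 1.29 for glycolysis, 0.39 to 1.01 for HIF targets, 0.38 to 1.01 for adipocyte genes and -1.58 to -1.07 for interferon-stimulated genes; the value nearest 0 of the first 3 and farthest from 0 of the last was that of spike-in scaling. Depth limits genes near 1 CPM, which is about 26 counts in the ML-60218 library.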

Other observations

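Among further lists, immediate early genes moved in both directions. Of 21 measured, 2 were higher and 2 lower: Fosl1, the AP-1 member Fra-1, had 155.4 CPM with ML-60218 and 46.50 CPM in control, and Egr2 had 4.81 CPM with ML-60218 and 1.89 CPM in control, whereas Egr1 had 11.41 CPM with ML-60218 and 29.20 CPM in control and Fos had 1.49 CPM with ML-60218 and 3.71 CPM in control. Of 16 circadian clock genes, 14 lay above 0 and 2 were higher, Ciart and the repressor Bhlhe40 (137.4 CPM with ML-60218, 50.78 CPM in control). Of 9 renin-angiotensin and vasoactive genes, Agt, angiotensinogen, was higher (336.8 CPM with ML-60218, 139.3 CPM in control), as was Rgs2, a regulator of G protein signalling (875.3 CPM with ML-60218, 406.9 CPM in control), and the receptor Agtr2 was lower (21.52 CPM with ML-60218, 50.18 CPM in control). These genes had day 0 log2 ratios between -0.69 and 0.31.

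Ahr, the aryl hydrocarbon receptor, had 13.70 CPM with ML-60218 and 44.31 CPM in control, while the 9 genes of its list had a median log2 ratio of -0.28. Foxo3, a forkhead factor of insulin signalling, had 12.59 CPM with ML-60218 and 28.19 CPM in control, and Igf1 had 6.64 CPM with ML-60218 and 16.49 CPM in control. Apln, the peptide apelin, had 61.20 CPM with ML-60218 and 14.47 CPM in control, and Sema3g had 70.28 CPM with ML-60218 and 14.43 CPM in control, after 0.778 CPM with ML-60218 and 0.433 CPM in control at day 0. Of 24 ATF4 stress genes and 22 p53 targets none passed the rule, with median log2 ratios of 0.15 (-0.42 under spike-in scaling) and -0.06.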
